A study of Homo sapiens with 5 samples.

Results

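The genes of the cytosolic ribosomal proteins were followed by RNA-seq through 3 ELK4 knockdowns of HCT116, a human colorectal carcinoma cell line. They were taken by name, as RPL or RPS followed by a number and at most 1 letter A or X, together with RPLP0, RPLP1, RPLP2 and RPSA, and came to 77 of the 20026 genes in the files. Of these, 31 encode proteins of the small (40S) subunit and 46 proteins of the large (60S) subunit. The naming rule uses no measured value, although it was set with earlier results of these data known. FAU, which encodes a ribosomal protein fused to a ubiquitin-like protein, does not carry such a name and stood outside. RACK1, a protein of the 40S subunit, stood outside as well.

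The study used 2 samples of HCT116 cells with the pLKO vector (pLKO_1 and pLKO_2) and 3 samples with stable ELK4 knockdown (shELK4_1, shELK4_2 and shELK4_3). All 5 had been transduced with lentivirus and selected with puromycin, and each knockdown sample carried a different short hairpin RNA, so each hairpin is 1 sample and no hairpin can be tested by itself. ELK4 is a transcription factor of the ETS family, and the comparison asks which genes change with its loss. Carrying a hairpin and losing ELK4 cannot be told apart in this design, no batch is named in the labels, and nothing says that samples of a group came from separate cultures, so p-values measure the spread between these samples only.

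Ribosomal proteins assemble with the ribosomal RNAs into the small and the large subunit, and cells need them in matched amounts. Their mRNAs are among the most abundant in growing cells. Most begin with a 5′ terminal oligopyrimidine (TOP) tract, a C followed by an unbroken run of C and T at the first transcribed base, through which mTOR signalling and the RNA-binding protein LARP1 control their translation. Reduced dosage of many of these genes causes Diamond-Blackfan anemia, and free RPL5 and RPL11 bind MDM2 and stabilise p53.

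The TOP start is shown for 10 of the genes whose values are described further on, because most of them carry it. Each line gives the 20 bases before the RefSeq start and the first 10 transcribed bases, 5′ to 3′ on the gene's strand, from GRCh38.p14, and capitals mark the pyrimidine run that begins at the first transcribed base.
RPLP0 (chr12:120201102-120201131, minus strand): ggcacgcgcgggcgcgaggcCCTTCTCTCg
RPLP1 (chr15:69452798-69452827, plus strand): gctgcgtataggcgcgagagCCCCTTTCCT
RPLP2 (chr11:809947-809976, plus strand): gcctcttgcgtcggcgccttCCTTTTCCTC
RPL12 (chr9:127451397-127451426, minus strand): cttgtccgcgcgatttccggCCTCTCggct
RPL41 (chr12:56116613-56116642, plus strand): gtagacggaacttcgcctttCTCTCggcct
RPL34 (chr4:108620556-108620585, plus strand): ctggcaaaggcttttttcttCCTCTTCCgg
RPL31 (chr2:101002269-101002298, plus strand): ctcccacaatccttcgcgctCTTCCTTTCC
RPS27 (chr1:153990742-153990771, plus strand): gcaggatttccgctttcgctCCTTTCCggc
RPL37A (chr2:216498824-216498853, plus strand): cctgcgcaccgcgtctcttcCTTTCTgggc
RPL38 (chr17:74203658-74203687, plus strand): ccggaaacggaagtctcgttCTTTTTCgtc

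A RefSeq promoter window, 250 bases before to 50 after the start, was at hand for 62 of the 77 genes. A TOP start, taken as a C at the first transcribed base followed by at least 4 more C or T, was found in 46 of the 62 (74.2%). Among all 8621 tested genes with a window the share was 7.79%, and among all 35116 windows 4.07%. The run was between 5 and 19 bases long in the 46 genes. RPL15, which is described first among the single genes, had none at any of its 3 annotated starts, and its windows are shown without capitals for that reason.
RPL15, start at 23916545 (chr3:23916525-23916554, plus strand): ccctgggcgctggggcctgctggaggagct
RPL15, start at 23917098 (chr3:23917078-23917107, plus strand): ctttccaccggaaagagggtggctgaggtg
RPL15, start at 23917132 (chr3:23917112-23917141, plus strand): aggagcccaaaaggcattgtgggagtacag

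The word CCGGAAGT, on either strand, is a strong binding sequence of the ETS family to which ELK4 belongs. It stood in the promoter windows of 9 of the 62 genes (14.5%), against 11.1% of the tested genes and 4.14% of all windows. It is shown in capitals for 5 of them, in the gene's own orientation, at a distance of -104 to -47 bases from the start.
RPS25 (chr11:119018380-119018409, minus strand): cgccttttgccCCGGAAGTactcacagcgg
RPL31 (chr2:101002225-101002254, plus strand): tgcctggcgacCCGGAAGTtgtacttgcaa
RPL27A (chr11:8682716-8682745, plus strand): ggcctctgtgaCCGGAAGTgaggcgttttg
RPS14 (chr5:150449768-150449797, minus strand): ctcagaggtatACTTCCGGgacacggaagt
RPS6 (chr9:19380322-19380351, minus strand): attaatctcgcCCGGAAGTaccgcccaccc
The other 4 genes with the word were RPS18, RPLP2, RPL19 and RPL32. The GC box CCCCGCCCC, a word bound by SP1 and related factors, stood in 5 of the 62 windows (8.06%), against 35.0% of tested genes. The word AAGATGGC, part of the YY1 site, stood in 6 (9.68%), against 7.05%. These matches describe letters in a window and say nothing of binding.

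The deposited values are FPKM, a level scaled to the length of the transcript and to the mapped reads of the library. They carry no counts, so the depth of the libraries is unknown. Total FPKM was between 309139 and 319870 in the 5 samples. HCT116 is an epithelial line, and KRT8 (583 to 1072 FPKM), KRT18, KRT19, EPCAM and CDH1 were all expressed, while the leukocyte and endothelial markers PTPRC, CD3E, PECAM1 and CDH5 were all at or under 0.011 FPKM. The fibroblast markers COL1A1 and COL3A1 reached at most 4.21 and 0.122 FPKM. The 5 epithelial markers summed to 2615 and 2655 FPKM with the vector and to 1989, 1476 and 1585 in shELK4_1, shELK4_2 and shELK4_3. KRT8, KRT18 and KRT19 were below both controls in every hairpin (limma adjusted p of 0.108 to 0.139), as were 21.0% of all tested genes. EPCAM (156 and 157 FPKM with the vector) and CDH1 (20.5 and 20.3) were above both controls in shELK4_1, at 166 and 23.1 FPKM. Both were below the controls in shELK4_2 and shELK4_3. The sum was thus lowest in shELK4_2, the sample with the highest ribosomal protein share. Its part in that share was not tested. ELK4 itself was 8.62 and 7.60 FPKM with the vector and 3.14, 2.82 and 2.44 in the knockdowns, 34.5% of the control mean. Its log2 change was -1.26 ± 0.12 (SE; limma adjusted p = 0.029). The adjusted p of ELK4 was above the threshold of 0.05 when either control (0.452 without pLKO_1, 0.300 without pLKO_2), shELK4_1 (0.0748) or shELK4_3 (0.0806) was left out.

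Ribosomal protein genes took nearly the same part of the expression signal in 4 of the 5 samples. Their share of total FPKM was 22.2% and 22.1% with the vector, and 22.2%, 25.7% and 23.0% with the hairpins (values of the hairpins are always given in the order shELK4_1, shELK4_2, shELK4_3). The controls and shELK4_1 were alike, shELK4_3 lay slightly above them, and shELK4_2 stood apart. The group means were 22.1% ± 0.0686 (SD, n = 2) and 23.7% ± 1.86 (SD, n = 3), a difference of 1.54 percentage points that is smaller than the SD among the hairpins. Without shELK4_2 the difference was 0.497 points. FPKM values are relative within a library, and fewer cells of a type and less RNA per cell cannot be told apart in bulk RNA.

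**Figure D1:**
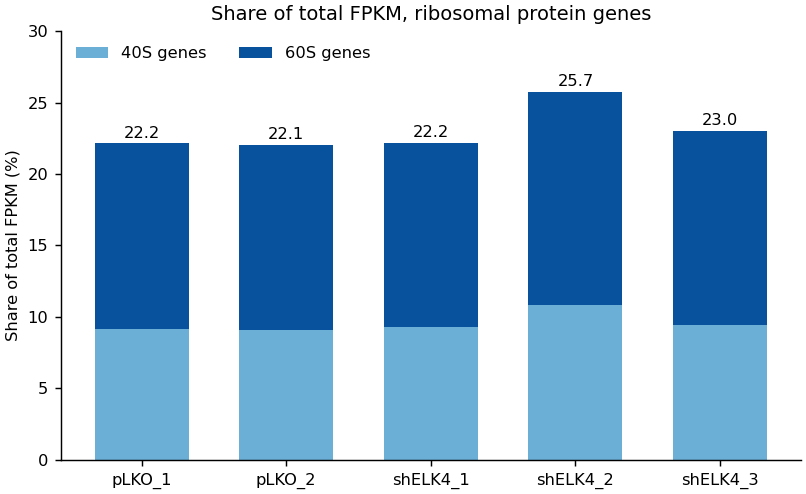
Share of total FPKM (%, y axis) taken by the 31 small-subunit (40S, light) and 46 large-subunit (60S, dark) ribosomal protein genes in each of the 5 samples. The printed totals lie between 22.1 and 23.0 in 4 samples and at 25.7 in shELK4_2.

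Both subunits shared in the difference. Of total FPKM, the 40S genes took 9.14% and 9.05% with the vector and 9.28%, 10.9% and 9.44% with the hairpins. The 60S genes took 13.02% and 13.01% in the controls and 12.9%, 14.9% and 13.6% in the hairpins. The ratio of summed 60S to 40S FPKM was 1.43 and 1.44 in the controls and 1.39, 1.37 and 1.44 in the hairpins. shELK4_2 thus had the highest share for each subunit and the lowest ratio. The next highest shares were those of shELK4_3, and the next lowest ratio that of shELK4_1.

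The 20 genes of highest FPKM took 13.1% of total FPKM in each control and 13.3%, 15.8% and 13.2% under knockdown. Ribosomal protein genes filled 14 of these 20 places in 4 samples and 15 in shELK4_3, and 12 of them were in the top 20 of every sample, among them RPLP1, RPLP2, RPS2, RPS12, RPS18 and RPL38. Their part of the top-20 share was 9.49% and 9.40% in the controls and 9.28%, 11.3% and 10.1% in the hairpins. The ribosomal protein genes below the top 20 took 12.7% of total FPKM in each control and 12.9%, 14.4% and 12.9% in the hairpins, so in shELK4_2 the lower-ranked genes stood above the controls too. The other genes of the top 20 took 3.60% and 3.69% in the controls and 4.02%, 4.46% and 3.07% in the hairpins. Among those, EEF1A1, the elongation factor that delivers aminoacyl-tRNA and whose mRNA also starts with a TOP tract, was 2047 and 2073 FPKM with the vector and 2219.8, 2898.5 and 1995 with the hairpins.

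Levels spread widely between the genes of one complex. The mean FPKM over all samples had a median of 728 over the 77 genes, against 8.51 over the 10780 tested genes, and 32 of them were at 1000 FPKM or more. RPLP1, an acidic protein of the stalk that recruits elongation factors, was highest in both controls and in shELK4_3 at 3193, 3307 and 3459 FPKM. RPS2, at the entry of the mRNA channel, was highest in shELK4_1 and shELK4_2 at 3356 and 4219.5 FPKM, and these were its highest values too. RPL36A was 5.54 and 5.26 FPKM in the pLKO samples, against 5.04, 6.35 and 5.28 under knockdown. RPS29 was 22.9 FPKM in each control, and 21.0, 27.7 and 25.2 with the hairpins. RPL28 was 24.8 and 28.6 FPKM with the vector, whereas the hairpin samples had 24.9, 29.4 and 26.7, and these 3 genes were the only ones of the 77 whose mean over all samples was below 100 FPKM. None was listed at 0 in any sample. Spearman's correlation of the 77 levels between samples was 0.989 to 0.998 over the 10 pairs of samples, a description across genes of libraries made with one method.

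These levels depend on how reads that match several places were treated, which is not given in the sources used here. Ribosomal protein genes have many processed pseudogenes. In GENCODE release 44, 20 of the 77 genes shared at least 50% of the 50-base words of their transcripts with another gene, and 15 shared under 5%. RPL17 shared 96.6%, RPS10 90.4%, RPS3A 90.0%, RPL9 89.6% and RPL21 85.1%. The other gene is not always a pseudogene. RPL17 shared 96.6% and RPS10 82.6% with other protein-coding genes, and their exons overlap RPL17-C18orf32 and RPS10-NUDT3. Values of genes with many shared words are uncertain for that reason, as are those of genes whose exons overlap others, such as RPL10 (53.4% of its exonic bases), since the strand setting is not given either. RPL38, RPLP2 and RPL37A shared under 1%. In shELK4_2 the median log2 ratio to the controls was 0.22 for the 20 genes with many shared words and 0.19 for the other 57. The largest ratios in that sample were all of genes with many shared words. They were RPL12 (0.58, 56.4% shared), RPS27 (0.50, 68.0%), RPS2 (0.44, 72.5%) and RPLP0 (0.40, 56.25%). RPS20 came next (0.38, 34.7%). The part of shared words in these ratios was not tested.

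The question of how the genes moved together was put to each hairpin by its log2 ratio of FPKM + 1 to the mean of the 2 controls. In shELK4_2 the median over the 77 genes was 0.20 (1.15-fold), 72 of them were above 0, and the range was -0.19 to 0.58. In shELK4_3 the median was 0.06 and 53 were above 0. In shELK4_1 the median was -0.02 (0.03 with quantile normalization) and 30 were above 0. The ratio of pLKO_2 to pLKO_1, which shows the spread without a hairpin, had a median of 0.01 with 49 above 0. Over all tested genes the medians were -0.01, -0.02 and 0.01 in shELK4_1, shELK4_2 and shELK4_3.

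**Figure D2:**
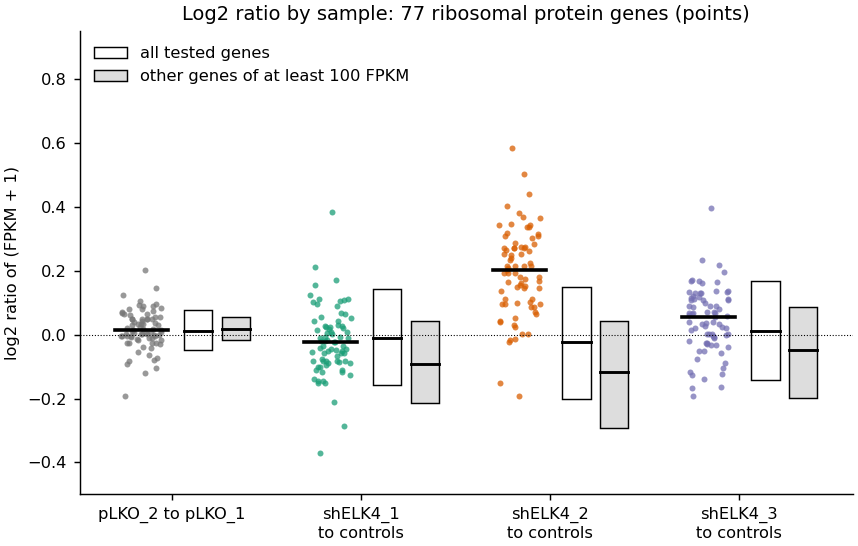
Log2 ratio of FPKM + 1 (y axis) for pLKO_2 against pLKO_1 and for each hairpin against the mean of the controls. Points are the 77 ribosomal protein genes with their median as a bar, boxes span the first to the third quartile with the median as a line, for all 10780 tested genes (white) and the 378 other genes of at least 100 FPKM (grey), and the points of shELK4_2 lie mostly above 0 around 0.20.

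The spread among the genes was narrow in every hairpin. The SD over the 77 log2 ratios was 0.11, 0.14 and 0.10 in the hairpins, against 0.06 between the controls. For the 378 other genes of at least 100 FPKM it was 0.34, 0.33 and 0.30, and for all tested genes 0.29, 0.31 and 0.29. A narrow spread was not particular to this family. The SD was 0.11, 0.14 and 0.18 for the 36 tested proteasome genes. It was 0.15, 0.18 and 0.15 for the 79 tested genes of the respiratory chain and ATP synthase. Those 378 genes had medians of -0.09, -0.12 and -0.05, so the median of the ribosomal protein genes stood above theirs in each hairpin. shELK4_2 was above both controls in 69 of the 77 genes and in 40.8% of all tested genes. It had the highest value of the 5 samples in 63 of the 77 (81.8%) and in 22.3% of all tested genes. shELK4_1 had the lowest value in 36 of the 77 and in 20.6% of all tested genes. The median difference of shELK4_2 was 0.23 to shELK4_1 and 0.14 to shELK4_3. Each of these is a description of 1 library.

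**Figure D3:**
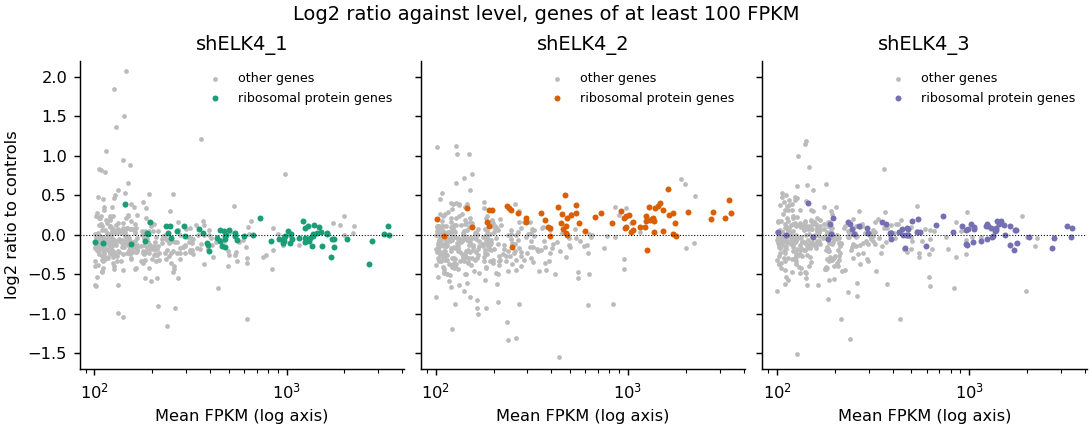
Log2 ratio to the mean of the controls (y axis) against mean FPKM over all samples (x axis, log scale) for the 452 genes of at least 100 FPKM, with 1 panel a hairpin. The 74 ribosomal protein genes (coloured) run from -0.19 to 0.58 in shELK4_2, within the wider range of the 378 other genes (grey), -1.56 to 1.12.

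Level and transcript length were weakly related to the log2 ratio within a hairpin. Spearman's correlation of the log2 ratio with mean FPKM over the 77 genes was -0.02, 0.08 and -0.14 in shELK4_1, shELK4_2 and shELK4_3, and with transcript length 0.17, 0.04 and -0.01. In shELK4_2 the 44 genes with a transcript under 1000 bases had a median of 0.19, and the 33 longer ones 0.22. These lengths are of the GENCODE canonical transcript, which was 7573 bases for RPL37 and 7136 for RPL14. Which transcripts the cells made is not known, so the values describe annotated length only. Other genes of at least 100 FPKM with a transcript under 1000 bases (106 genes) had a median of -0.20 in that sample. The TOP start gave no split either, with a median of 0.19 in shELK4_2 both for the 46 genes that had it and for the 16 that did not. This split depends on the annotated start base. RPL17 is among the 16 although a run of C and T ends just before its RefSeq start. The starts used in these cells were not tested. The 51 other genes of at least 100 FPKM with a TOP start had medians of -0.0029, -0.03 and 0.07 in the 3 hairpins. The 9 genes with the word CCGGAAGT had medians of 0.01, 0.26 and 0.01, and the 53 without it -0.04, 0.18 and 0.04.

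None of the 77 genes passed the test of knockdown against control (limma, Benjamini-Hochberg adjusted p under 0.05 over 10780 genes), which 18 of the tested genes (0.167%) passed. The lowest adjusted p was 0.115, for RPL15. At an unadjusted p under 0.05, 3 genes were higher (RPL15, RPL41 and RPL34) against 8.08% of all tested genes, and 0 were lower against 8.14%. With quantile normalization 13 were higher and 2 lower, against 8.42% and 7.37%. All 3 hairpins lay above both controls in 15 genes, where the share among all tested genes was 19.1%. Among these were RPLP0, RPL3, RPL13, RPL15, RPL26, RPL31, RPL34, RPL37, RPL41, RPS3, RPS3A, RPS23 and RPS25, and the log2 changes of the 15 ran from 0.12 to 0.37. They lay below both controls in 1 gene, RPL38, where it was 21.0%. In the other 61 genes the groups overlapped, and their log2 changes ran from -0.16 to 0.18. The median log2 change over the 77 genes was 0.07, with 62 above 0, against -0.01 over all tested genes, and it was 0.005 without shELK4_2. These counts depended on single libraries. At an unadjusted p under 0.05 there were 8 higher genes without shELK4_1 (background 8.93%), and 5 higher and 3 lower without shELK4_2 (11.6% and 11.05%). Leaving out a control kept only 1 control sample, so no count at that limit is given for it. Genes with the remaining hairpins above the remaining controls numbered 44 without shELK4_1 and 27 without pLKO_2, against 26.2% and 25.8% of all genes. Without shELK4_2 they numbered 16, against 28.1%. Genes below numbered 15 without shELK4_2, 7 without pLKO_1 and 3 without shELK4_3, against 28.4%, 27.9% and 29.6%.

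RPL15, a large-subunit protein and a Diamond-Blackfan anemia gene, had the largest difference between the groups and the lowest p of the 77. It was 123 FPKM in each control, and 161, 156 and 162 with the hairpins. All hairpins were above both controls by a similar amount. The log2 change was 0.37 ± 0.08 (SE; unadjusted p = 0.0024, adjusted p = 0.115). It was among the 2 genes farthest above the median of the 77 in shELK4_1 and shELK4_3, with log2 ratios of 0.38 and 0.40, and its ratio in shELK4_2 was 0.34. Leaving out each sample in turn gave adjusted p-values of 0.0577 to 0.905.

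RPL41, one of the smallest ribosomal proteins, was 634 and 681 FPKM with the vector and 761, 793 and 773 with the hairpins. The groups did not overlap, and the log2 change was 0.24 ± 0.08 (SE; adjusted p = 0.226). RPL34, a further large-subunit protein, was 173 and 181 FPKM in the pLKO samples, against 197, 219 and 206 under knockdown. Its log2 change was 0.23 ± 0.09 (SE; adjusted p = 0.273), again with no overlap. In these 2 genes and in RPL15 each hairpin was above both controls, shELK4_1 included, although the median over the 77 genes in that sample was -0.02, or 0.03 with quantile normalization.

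**Figure D4:**
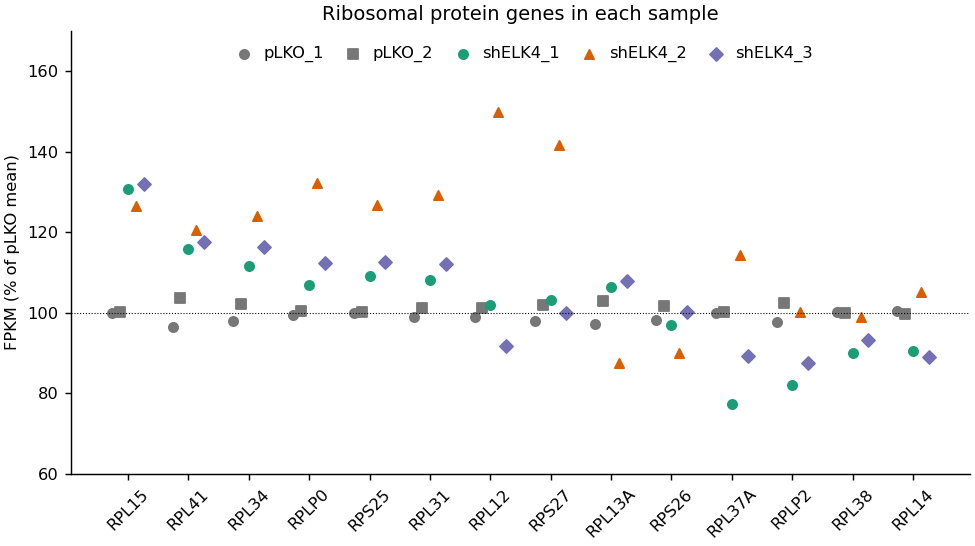
FPKM of 14 ribosomal protein genes in each sample as a percentage of the mean of the 2 controls (y axis), 1 point a sample. RPL15, RPL41 and RPL34 have all 3 hairpins above the controls, RPL12 and RPS27 stand out in shELK4_2, and RPL37A and RPLP2 are lowest in shELK4_1.

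The stalk and its base held genes that lay far apart from each other, with an SD of the 4 log2 ratios of 0.17, 0.24 and 0.17 in the 3 hairpins. The stalk is formed by RPLP0 with the acidic proteins RPLP1 and RPLP2, beside RPL12, and it recruits and activates the GTPase factors of translation. RPLP0 was 1324 and 1337 FPKM with the vector, whereas the hairpin samples had 1422, 1759.8 and 1495, with no overlap and a log2 change of 0.22 ± 0.11 (SE; adjusted p = 0.365). RPLP1 was 3193 and 3307 FPKM with the vector and 3228, 3922 and 3459 with the hairpins, with a log2 change of 0.12 ± 0.10 (SE). RPLP2, the partner of RPLP1 in the stalk, went the other way in its values. It was 1778 and 1865 FPKM in the pLKO samples, against 1493, 1824 and 1594 under knockdown. That gave a log2 change of -0.16 ± 0.11 (SE; adjusted p = 0.485), the lowest of the 77 genes, and it was among the 2 genes farthest below the median in shELK4_1 and shELK4_3. RPL12 was 1479 and 1512 FPKM with the vector, whereas the hairpin samples had 1524, 2243 and 1371. Its log2 ratio of 0.58 in shELK4_2 was the highest of the 77 in any hairpin, and in shELK4_3 it was -0.13, below both controls.

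The 5S RNP proteins RPL5 and RPL11 had log2 ratios of 0.30 and 0.15 in shELK4_2, on either side of the median of all 77. RPL5 was 848 and 891 FPKM with the vector and 835, 1073 and 937 with the hairpins. RPL11 was 788 and 839 FPKM in the pLKO samples, against 766, 903 and 831 under knockdown. Both were highest in shELK4_2 and lowest in shELK4_1, and the groups overlapped. Of the other genes of the checkpoint that joins these proteins to p53, MDM2 had a log2 change of 0.30 ± 0.09 (SE; adjusted p = 0.195). CDKN1A, the p53 target that encodes the cell cycle inhibitor p21, was the only 1 of 7 checkpoint genes to pass the test. It fell from 365 and 372 FPKM in the controls to 165, 145 and 147 in the hairpins, a log2 change of -1.27 ± 0.09 (SE; adjusted p = 0.015). That adjusted p was above 0.05 without pLKO_1 (0.349), pLKO_2 (0.300), shELK4_1 (0.0602) or shELK4_3 (0.0650).

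On the decoding side of the small subunit, 8 genes were followed, among them RPS2, RPS3, RPS14, RPS15, RPS23, RPS26 and RPS28. Their median log2 ratios were 0.0026, 0.21 and -0.0024 in the 3 hairpins. RPS3, which lines the mRNA entry and also acts in DNA repair, was 252 and 251 FPKM with the vector, whereas the hairpin samples had 259.1, 304 and 271. RPS23, whose hydroxylated loop reaches the decoding site, was 229 and 230.2 FPKM with the vector and 247, 286 and 241 with the hairpins. These 2 of the 8 had all hairpins above both controls, where the share among all tested genes was 19.1%. RPS26, which contacts mRNA upstream of the start codon, was 252 and 261 FPKM in the pLKO samples, against 249, 231 and 257 under knockdown, and in shELK4_2 it was among the 2 genes farthest below the median, at -0.15.

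At the peptide exit tunnel and its rim, the medians of 8 genes were -0.03, 0.19 and 0.06. All 8 were highest in shELK4_2 among the 5 samples, as were 81.8% of the 77 genes and 22.3% of all tested genes. RPL31, at the rim where chaperones and targeting factors dock, was 211 and 216 FPKM with the vector, whereas the hairpin samples had 230.4, 276 and 239. The groups did not overlap, with a log2 change of 0.21 ± 0.10 (SE; adjusted p = 0.352). RPL26, whose exons share many words with other genes, was 474 and 466 FPKM with the vector and 491, 559 and 528 with the hairpins, without overlap. RPL35 was 1733 and 1712 FPKM in the pLKO samples, against 1656, 1907 and 1792 under knockdown, with overlap.

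The 19 Diamond-Blackfan anemia genes had medians of -0.05, 0.22 and 0.07, near those of all 77. RPL15 was the only 1 of them with an unadjusted p under 0.05, and RPL15, RPL26 and RPL31 were the 3 without overlap of the groups, all with the hairpins above, where the share among all tested genes was 19.1%. RPS19, the gene most often mutated in that disease, was 97.8 and 100.04 FPKM with the vector, whereas the hairpin samples had 93.0, 113 and 102. In this gene shELK4_2 alone lay above the controls by more than their difference. RPS27, a zinc-binding small-subunit protein, was 424 and 441 FPKM in the pLKO samples, against 446, 613 and 432 under knockdown, so its log2 ratio of 0.50 in shELK4_2 stood beside 0.04 and 0.00.

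Proteins known for roles outside the ribosome (8 genes) had medians of 0.03, 0.27 and 0.11. RPS25, which some internal ribosome entry sites require, was 1266 and 1267 FPKM with the vector, whereas the hairpin samples had 1381, 1607 and 1426. The groups did not overlap and the log2 change was 0.21 ± 0.09 (SE; adjusted p = 0.325). RPS6, the substrate of the S6 kinases, was 1285 and 1369.8 FPKM with the vector and 1349.7, 1708 and 1452 with the hairpins, with overlap. RPL13A, which represses translation of some inflammatory mRNAs when released from the ribosome, had the lowest ratio of the 77 in shELK4_2. It was 1211 and 1283 FPKM in the pLKO samples, against 1326, 1092 and 1346 under knockdown. RPL38, needed for translation of a subset of Hox mRNAs in the mouse embryo, was 1841 and 1836 FPKM with the vector, whereas the hairpin samples had 1655, 1819.8 and 1712. Its hairpins were all below both controls, with a log2 change of -0.09 ± 0.08 (SE; adjusted p = 0.617). RPS27A, made as a fusion to ubiquitin, was between 458 and 498 FPKM in all samples and its log2 change was 0.01 ± 0.08 (SE).

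Among the remaining genes with low values in the knockdowns, RPL37A was 2794 and 2803 FPKM with the vector and 2167, 3201 and 2498 with the hairpins. Its ratio of -0.37 in shELK4_1 was the lowest of the 77 in any hairpin, and in shELK4_2 it was 0.19. RPL14 was 478 and 475 FPKM in the pLKO samples, against 431, 500.4 and 424 under knockdown. RPLP2, RPL37A and RPL14 shared 1 pattern, with shELK4_1 and shELK4_3 below both controls and shELK4_2 level with or above them, and they were the 3 lower genes at an unadjusted p under 0.05 without shELK4_2. RPS12 and RPS18, among the most abundant, were also highest in shELK4_2. RPS12 was 2732 and 2677 FPKM with the vector, whereas the hairpin samples had 2555, 3297 and 2631. RPS18 was 3099.7 and 3042 FPKM with the vector and 3087, 3564 and 3315 with the hairpins. RPS21 was between 104 and 114 FPKM in all samples.

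Lists of genes close to this family in function had other medians in shELK4_2. The 8 tested paralogs and fusions that the naming rule left out had medians of -0.17, -0.13 and -0.06 in shELK4_1, shELK4_2 and shELK4_3. RPS27L, the p53-inducible paralog of RPS27, was 114 and 110 FPKM in the pLKO samples, against 87.7, 80.5 and 75.9 under knockdown, a log2 change of -0.46 ± 0.09 (SE; adjusted p = 0.112). RPL36AL, RPL26L1 and FAU also had all hairpins below both controls, so 4 of the 8 did, where the share among all tested genes was 21.0%. The 77 mitochondrial ribosomal protein genes had medians of -0.05, -0.20 and 0.05, so in shELK4_2 the cytosolic and mitochondrial families lay on opposite sides of the controls. Of other TOP genes, the 23 tested outside the 8 related genes above had medians of -0.0017, 0.11 and 0.03. In shELK4_2, 16 of these 23 (69.6%) were above both controls, against 40.8% of all tested genes. EEF2, the translocase of elongation, was 773 and 788 FPKM with the vector, whereas the hairpin samples had 829.7, 998 and 876, and NPM1 and EEF1D had all hairpins below both controls. Of the 23 genes, 4 had all hairpins above both controls and 3 below, against 19.1% and 21.0% of all tested genes. None of these genes passed the test.

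**Figure D5:**
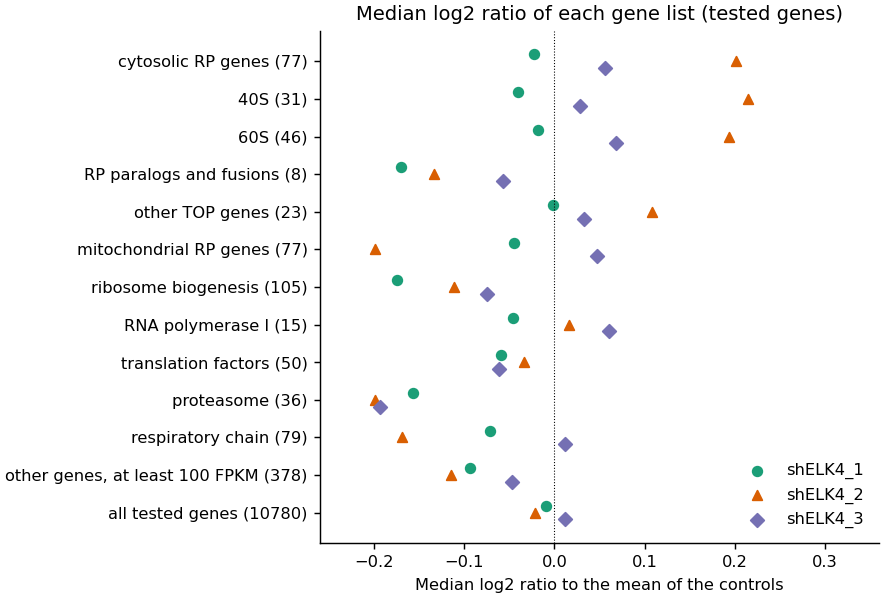
Median log2 ratio to the mean of the controls (x axis) of the tested genes of each list (y axis, number of genes in parentheses), 1 point a hairpin. In shELK4_2 the cytosolic ribosomal protein genes lie at 0.20, the mitochondrial ones at -0.20 and the proteasome genes at -0.20.

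Ribosome assembly genes had lower ratios to the controls than the proteins they assemble. Of 105 ribosome biogenesis factors, 16 were lower and 1 was higher at an unadjusted p under 0.05, 48 had all hairpins below both controls and 6 above, and 0 passed the adjusted test. Over all tested genes the shares were 8.14% lower, 8.08% higher, 21.0% below and 19.1% above. The medians of the biogenesis factors were -0.18, -0.11 and -0.08. SBDS, which releases the anti-association factor from the 60S subunit, was 61.3 and 66.0 FPKM with the vector and 49.1, 47.4 and 55.4 with the hairpins, and TSR1, RRS1 and NOC2L were below both controls as well. The 15 tested genes of the RNA polymerase I machinery had medians of -0.05, 0.02 and 0.06, with 0 past either limit. The 50 translation factors had medians of -0.06, -0.03 and -0.06, with 1 higher and 6 lower at an unadjusted p under 0.05 (8.08% and 8.14% of all tested genes). Elongation factor genes differed in shELK4_2. The log2 ratio was 0.49 for EEF1A1, 0.35 for EEF2, 0.26 for EEF1B2 and 0.25 for EEF1G, but -0.93 for EEF1A2. Of 27 tested regulators of ribosomal protein synthesis, only ELK4 itself passed the test. At an unadjusted p under 0.05, 2 were higher, and ELK4 was the only 1 lower, against 8.08% and 8.14% of all tested genes. All hairpins lay above both controls in 7 of the 27 and below in 1, against 19.1% and 21.0%. EIF4EBP2, an mTOR substrate that represses initiation, was 16.7 and 16.6 FPKM in the pLKO samples, against 25.8, 28.1 and 24.4 under knockdown, with a log2 change of 0.62 ± 0.10 (SE; adjusted p = 0.074). The 36 proteasome genes, which encode another large complex, had medians of -0.16, -0.20 and -0.19, with 12 lower at an unadjusted p under 0.05 (8.14% of all tested genes). The 79 genes of the respiratory chain and ATP synthase had medians of -0.07, -0.17 and 0.01, with 1 higher and 6 lower against the same shares. Of 14 listed snoRNA host genes TAF1D alone was analysed here, and it had all hairpins above both controls. Values beyond 2-fold were seen in none of the 77 ribosomal protein genes in any hairpin.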

How the data were processed

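RNA-seq was carried out on poly(A)-selected RNA of 5 HCT116 samples. The authors deposited 1 FPKM value per gene and sample, which Cufflinks had scaled to the total mapped reads. The submitters' processing notes name Trimmomatic 0.36, HISAT2 2.0.5, Cufflinks 2.2.1 and HTSeq 0.9.1. The genome build, annotation, strand setting and treatment of multiply mapped reads are not given in the sources used here, and the depth is unknown. From 20030 entries, 4 with repeated names were dropped.

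An FPKM of 1 or more in 2 or more samples was required (10780 genes, all 77 ribosomal protein genes among them), and genes were tested on log2(FPKM + 1), which understates changes of low genes, with limma 3.58.1 in R 4.3.3 (a model of condition alone, empirical Bayes with a trend, Benjamini-Hochberg adjustment). The fit was tested on simulated data. Ratios for each hairpin were taken to the mean log2 value of the 2 controls. The share was the summed FPKM of the 77 genes over that of all genes.

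Genes were named by rule: the 8 highest and 5 lowest in mean FPKM, the 6 of lowest p, the 4 largest rises and falls, the 2 farthest from the median on each side in each hairpin, members of role groups as examples, and up to 4 of lowest p in other lists. Some genes that the rule names are not reported here. The members and lists were chosen with earlier results of these data known. Transcript lengths, overlaps and shared words come from GENCODE release 44, and promoter windows from RefSeq on GRCh38.p14. No coordinate of the authors' build was used. Tables were computed in Python 3.11.15 (pandas 2.3.3, numpy 2.4.6) and plots drawn with matplotlib 3.10.9. Alternatives were a pseudocount of 0.1, no FPKM limit, median-of-ratios scaling, quantile normalization, the replicate number as a block, and each sample left out.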

Additional observations from a re-analysis of the deposited data

How the results depend on the processing

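No ribosomal protein gene reached an adjusted p under 0.05 with any of the 10 alternatives (limma). At an unadjusted p under 0.05, quantile normalization gave 15 genes in place of 3 (13 higher, 2 lower, against 8.42% and 7.37% of all tested genes). Leaving out a hairpin gave 3 to 8 higher and 0 to 3 lower, against 8.56% to 11.6% and 9.18% to 11.05% of all tested genes. The replicate numbers that both groups share did not pair the samples (correlation of same-numbered deviations 0.08 and 0.02), and with the replicate number as a block 1 gene was left, and it was higher. Genes with all hairpins above both controls numbered 25 and those below 6 with quantile normalization (19.3% and 18.8% of all tested genes), and 0 were below with median-of-ratios scaling. Leaving out each sample gave 16 to 44 above and 1 to 15 below, where the shares of all tested genes were 23.9% to 28.1% and 25.8% to 29.6%. The SD of the log2 ratios in shELK4_2 was 0.18 with quantile normalization, and the medians were 0.03 in shELK4_1 (a change of sign) and 0.15 in shELK4_2. The other medians and SDs by hairpin moved by less. The difference in share was 1.18 to 1.66 percentage points with other totals or without the 5 highest genes, and 0.497 to 2.27 with a sample left out. The causes were not tested.

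Of 48 named genes, 37 kept the sign of their log2 change in every alternative. With quantile normalization the reversed values were -0.044 for RPLP1, -0.014 for RPS18, 0.024 for RPS21, -0.073 for RPL13A and 0.027 for RPS26, and with the replicate block -0.051 for RPL13A. With a sample left out, the log2 change ran from -0.061 to 0.12 for RPS12, -0.27 to 0.015 for RPL37A, -0.055 to 0.087 for RPL36A, -0.086 to 0.12 for RPL28, -0.025 to 0.12 for RPS19, -0.049 to 0.31 for RPL12 and -0.051 to 0.10 for RPL13A. With every gene above 0 tested, the adjusted p was 0.114 for ELK4 and 0.0746 for CDKN1A. With 2 controls and 1 sample a hairpin, the precision rests on the spread between samples.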
